A study of Mus musculus with 6 samples.

Results

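The clustered protocadherins were described in cells of mouse cortex sorted as neurons after a stroke. Members were the genes whose symbols name the alpha, beta or gamma cluster, 59 of the 24419 genes in the table. They fall into 15 alpha, 22 beta and 22 gamma members. The 15-HETrE group (3 libraries) came from male wild-type C57BL/6N mice given 600 ng of 15-HETrE, a hydroxylated fatty acid, and the vehicle group (3 libraries) came from mice of the same strain and sex given vehicle. In both groups the middle cerebral artery was occluded for 60 min, injections in 150 µL of phosphate-buffered saline were given into a vein at 24, 48 and 72 h, and peri-infarct cortex was taken on day 4. Cells positive for Thy1 and negative for ACSA2, CD31, CD45 and O4 were sorted. The labels name neither the animals' ages nor how many animals went into a library, nor whether libraries of a group came from separate animals, so p-values measure the spread between libraries, which may be technical.

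Clustered protocadherins are cell surface adhesion proteins of the cadherin superfamily that bind the same isoform on the facing membrane. In neurons, each cell switches on a few alternate isoforms by choice of promoter, a choice that involves CTCF, cohesin and promoter methylation, while the C-type isoforms are switched on more uniformly. The resulting surface identity lets branches of one neuron recognise and avoid each other, and the gamma genes are also needed for survival of many interneurons in mice. Alpha and gamma transcripts join 1 variable exon, which encodes the extracellular part, to constant exons shared by the cluster. Beta genes lack such constant exons.

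All members lie on chromosome 18 (plus strand, RefSeq on GRCm38.p6, of which mm10 is the UCSC name). The alpha cluster runs from 36930285 to 37188897, the beta cluster from 37264998 to 37521419 and the gamma cluster from 37661775 to 37841873. Exon bases not shared with another plus-strand gene (GENCODE M21) had a median of 2480 per alpha, 3714 per beta and 2630 per gamma member. Of the 50-base stretches in a member's own exon, a median of 14.2% in alpha, 4.26% in beta and 0.730% in gamma also occurred in another member. The highest shares were 23.4% for Pcdha7, 11.99% for Pcdhb12 and 16.85% for Pcdhgb1, and Pcdhgc3, Pcdhgc4, Pcdhgc5, Pcdhac1 and Pcdhac2 shared 0 such stretches with another member. The sources used here do not say how reads that match several members, or reads in constant exons, were counted, so the split of reads between similar alternate isoforms is uncertain. Antisense genes overlap 4 alpha, 1 beta and 8 gamma members, among them Pcdhgc3, and the use of strand in counting is also not stated. A further 15.2% of such stretches in Pcdhgc5 occurred in genes that are not members. In the alternate alpha members matched to GENCODE, that share ran from 2.21% in Pcdha4 to 17.9% in Pcdha6.

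The libraries held 5405245 to 22558400 reads assigned to genes, and 5202 to 24468 of these fell on members. Column names carried a first prefix (15-HETrE 1, vehicle 1 and vehicle 2), a second (15-HETrE unnumbered) or the word combined (15-HETrE combined and vehicle combined). The labels do not explain these words. All 12 pan-neuronal markers were at 1 CPM or more in every library, and so were all 10 astrocyte and all 10 oligodendrocyte markers, although the sort was meant to leave those cells out. Summed over the list, pan-neuronal markers held 3618 to 6579 CPM in 15-HETrE and 2247 to 3626 CPM in vehicle libraries. Astrocyte markers held 1634 to 21473 CPM in 15-HETrE and 890 to 8324 CPM in vehicle libraries, and oligodendrocyte markers 16888 to 33070 and 15937 to 24007 CPM. All 8 oligodendrocyte precursor markers and all 8 pericyte and smooth muscle markers were also at 1 CPM or more in every library. Precursor markers held 2485 to 3745 CPM in 15-HETrE and 2275 to 4486 CPM in vehicle libraries. Pericyte and smooth muscle markers held 264 to 756 CPM in 15-HETrE and 876 to 1245 CPM in vehicle libraries. Endothelial, microglial and fibroblast lists had 1, 1 and 2 markers at 0 in some library. Fibroblast markers still held 1186 to 1794 CPM in 15-HETrE and 1490 to 9188 CPM in vehicle libraries. Pdgfra is on both the fibroblast and the precursor list. Endothelial markers held 39.9 to 115 CPM in 15-HETrE and 107 to 209 CPM in vehicle libraries, and microglial markers 36.1 to 117 and 40.2 to 148 CPM.

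Of the 59 members, 54 had a mean of at least 1 CPM (the authors' read count per gene, scaled to library size and composition) over the 6 libraries and were tested. The 5 under 1 CPM were Pcdha4, Pcdha6, Pcdha7, Pcdha7-g and Pcdhb1. Nearest to that limit were Pcdha1, inside it at 1.76 CPM, and Pcdha7-g, outside it at 0.849 CPM. Pcdha4, Pcdha6 and Pcdha7 had 0 reads in all 6 libraries. Each of these genes begins where a further gene begins that RefSeq annotates from the alpha into the gamma cluster, ending at 37841873 (Gm37013 at Pcdha4, Gm38666 at Pcdha6 and Pcdha7-g at Pcdha7). The table lists Gm37013 at 0 throughout and Gm38666 at 0 to 19 reads per library. Pcdha7-g had 2, 0 and 37 reads in 15-HETrE 1, unnumbered and combined and 0 in each vehicle library. Reads of these isoforms may have been counted for the overlapping genes or for none, so a value of 0 does not show absence.

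Among all members Pcdhgc3, a C-type gamma isoform that promotes dendrite branching in mouse cortex, was the most abundant member in each of the 6 libraries. Its levels were 147, 142 and 276 CPM in 15-HETrE 1, unnumbered and combined, against 133, 157 and 250 CPM for vehicle 1, 2 and combined. The groups overlapped, and the high values were those of both libraries named combined. Group means were 188 ± 75.9 CPM in 15-HETrE and 180 ± 61.8 CPM in vehicle libraries (SD, n = 3 each), a log2 difference of 0.045 (SE 0.335, adjusted p 0.971, limma). The sign of this small difference turned without 15-HETrE combined, at -0.27, without vehicle 1, at -0.15, and without vehicle 2, at -0.027. In those combined libraries the astrocyte list was also high, with a mean log2 level of 8.92 in 15-HETrE combined and 7.999 in vehicle combined, against 6.26 to 6.65 in the other 15-HETrE and 5.39 to 5.92 in the other vehicle libraries. The part of these cells in the level of Pcdhgc3 was not tested.

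**Figure D1:**
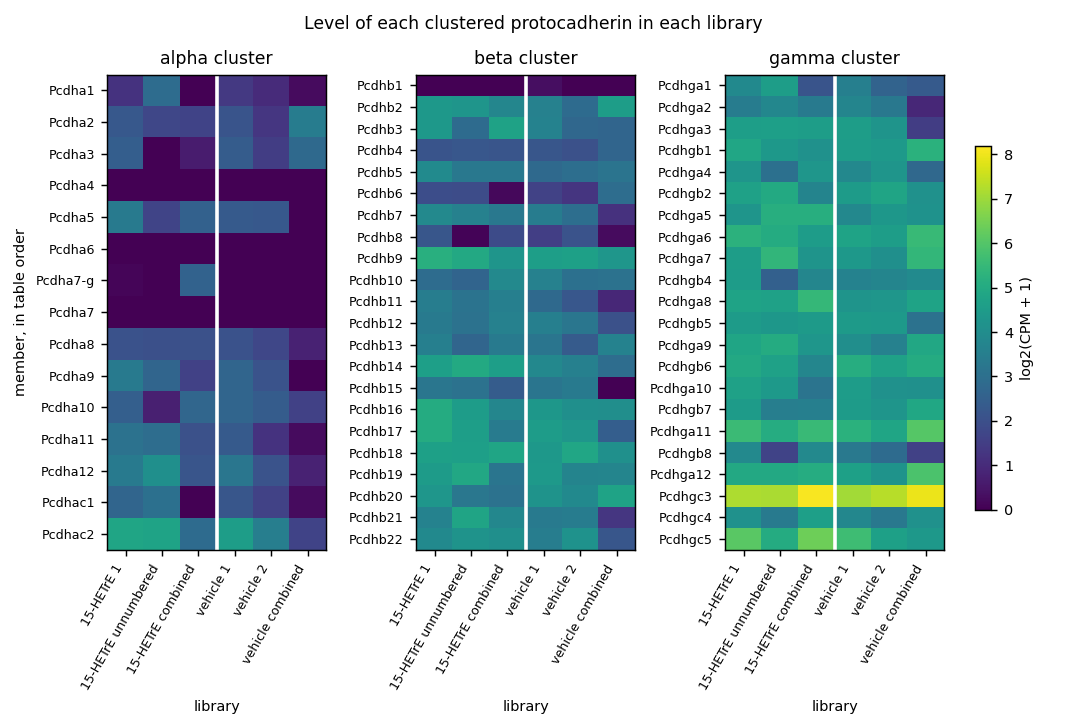
Level of each of the 59 members, as log2(CPM + 1) by colour, in each library; rows follow the order along the chromosome, with 15-HETrE libraries left of the white line and vehicle libraries right of it. Pcdhgc3 is the brightest row in all 6 libraries, and Pcdha4, Pcdha6 and Pcdha7 are dark throughout.

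Per kilobase of own exon, the clusters differed in level. Over members tested, the median level was 1.49 CPM per kb in alpha, 2.46 in beta and 7.61 in gamma. Pcdhgc3 stood at 54.5 CPM per kb, ahead of Pcdhga11 at 16.2 and Pcdhga6 at 11.9 CPM per kb. Among the beta members tested Pcdhb9 was highest at 8.17 CPM per kb, followed by Pcdhb2 at 5.38, and Pcdhb8 was lowest at 0.557. Pcdhac2 led the alpha cluster at 5.23 CPM per kb, and Pcdha12 led the alternate alpha isoforms at 2.77. By group, the median per kb was 1.44 in 15-HETrE and 1.17 in vehicle libraries for alpha, 2.96 and 2.07 for beta, and 8.18 and 7.19 for gamma, in the same order of groups. These lengths are GENCODE's, since the authors' annotation is not named. For some beta members they exceed the RefSeq span. Pcdhb14 has 8695 bases here but runs only from 37447657 to 37451094 in RefSeq. The beta median per kb and the order of beta members therefore depend on the source of lengths, and levels by RefSeq lengths were not computed. Sequence shared with other members also differed, at medians of 14.2% of 50-base stretches in alpha, 4.26% in beta and 0.730% in gamma. How reads from such stretches or from constant exons were counted is not stated, and their part in the order of the clusters was not tested.

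No member passed limma's test over all 14523 genes, and neither did any other gene (background 0.0% in each direction). The same was true of edgeR on the recovered reads, while DESeq2 called 165 genes and 0 members. DESeq2's calls were 0.241% of genes higher and 0.895% lower. At an unadjusted p under 0.05, limma had 1 member higher and 0 lower in 15-HETrE (1.85% higher, against 4.27% of all genes higher and 5.23% lower). At that p edgeR had 1 member higher and 0 lower (3.58% and 4.89% of all genes), and DESeq2 2 and 0 (4.57% and 6.11%). With limma's library weights, 4 of the 54 members tested passed, all higher in 15-HETrE. Their share was near the 7.29% of all genes that passed as higher, while 9.41% passed as lower. These members were Pcdhb2, Pcdhb14, Pcdhga9 and Pcdhgc5, with log2 differences of 1.14, 1.04, 1.00 and 1.05 and adjusted p of 0.0416, 0.0268, 0.0304 and 0.0357 in that weighted limma fit. In it, vehicle combined had a weight of 0.206, against 3.75 for vehicle 2. The name prefix as a batch term gave 0 members among 0.00689% of genes higher and 0.0482% lower, and leaving out both combined libraries 0 members among 0.0% higher and 0.516% lower. At an unadjusted p under 0.05, 10 of 54 members were higher with weights (14.5% of all genes), 7 with the batch term (8.59%), 3 without both combined libraries (5.27%) and 2 with a pseudocount of 5 (4.4%). With single libraries left out, 5 members were higher at that p without vehicle 1 (5.32% of all genes) and 2 without 15-HETrE unnumbered (4.84%). There was 1 such member without 15-HETrE 1 (2.64%), 15-HETrE combined (2.35%), vehicle 2 (2.35%) or vehicle combined (5.43%), and in that last fit 0.31% of genes passed after adjustment, all lower, with 0 members. The log2 difference was above 0 for 41 of the 54 members tested, 75.9%, against 51.0% of all genes. Its median was 0.43 over the members and 0.016 over all genes tested. Without vehicle combined, the members' median was 0.17, and without 15-HETrE 1 it was 0.25. A member kept by the filter had to reach 1 CPM on average, so this median leaves out the 5 low members. In bulk samples, fewer cells of a type and less RNA per cell cannot be told apart.

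All 3 clusters had a median above 0 and wide, overlapping ranges. Alpha members had a median log2 difference of 0.54 (8 of 11 above 0), beta members 0.43 (17 of 21) and gamma members 0.18 (16 of 22). The ranges were -1.20 to 1.44 in alpha, -0.76 to 1.39 in beta and -0.70 to 1.17 in gamma. Without vehicle combined the order turned, with 0.15 in alpha, 0.17 in beta and 0.24 in gamma. Without 15-HETrE combined the alpha median was 1.19. Within the first prefix, where 15-HETrE 1 stood against vehicle 1 and vehicle 2, 49 of 54 members were above 0 (90.7%, against 50.2% of all genes), with a median of 0.51. Within the combined pair 30 of 54 were above 0 (55.6%, against 52.9% of all genes), with medians of 1.22 in alpha, 0.75 in beta and -0.17 in gamma. The second prefix held 1 library and gave no difference.

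**Figure D2:**
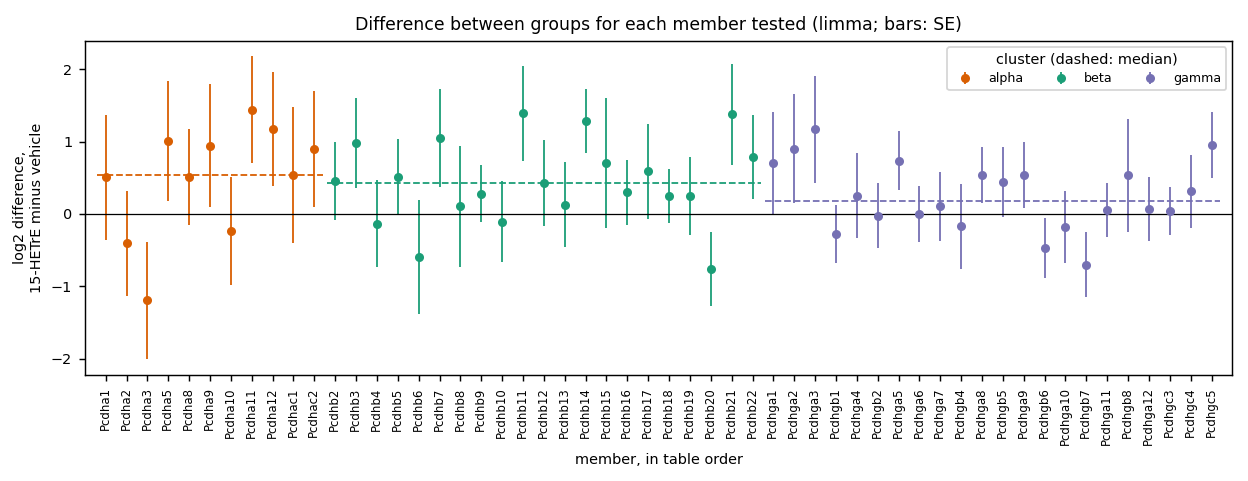
Log2 difference (15-HETrE minus vehicle) on the vertical axis for each of the 54 members tested, with its SE from limma; dashed lines are the cluster medians of 0.54, 0.43 and 0.18. Of the 54 points 41 lie above 0. The SE bars of Pcdhgc3 and Pcdhga6 span 0, while those of Pcdhb14 and, on the lower side, Pcdhb20 and Pcdhgb7 do not. A bar clear of 0 is not a call, and Pcdhb14 had an adjusted p of 0.460 (limma).

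Summed CPM gave the same order of the clusters. The alpha cluster summed to 85.6, 75.7 and 36.2 CPM in 15-HETrE 1, unnumbered and combined, against 66.0, 34.9 and 21.9 CPM for vehicle 1, 2 and combined. Its groups overlapped, since 15-HETrE combined lay below vehicle 1. Beta members summed to 334, 296 and 246 CPM in the 15-HETrE libraries and to 245, 216 and 178 CPM in the vehicle libraries. Here the groups did not overlap on the deposited scale, although 246 CPM in 15-HETrE combined and 245 CPM in vehicle 1 nearly met, and they overlapped when scaled by library totals alone. The gamma cluster held 694, 609 and 759 CPM in 15-HETrE libraries and 570, 520 and 736 CPM in vehicle libraries, where vehicle combined lay above 15-HETrE 1 and 15-HETrE unnumbered. Mean sums were 65.8 ± 26.1 against 40.9 ± 22.6 CPM for alpha, 292 ± 44.5 against 213 ± 33.7 CPM for beta and 687 ± 75.0 against 609 ± 113 CPM for gamma in 15-HETrE against vehicle libraries (SD, n = 3 each). Log2 ratios of these means were 0.69, 0.45 and 0.18. Leaving out 1 library moved the alpha ratio between 0.38, without vehicle combined, and 1.21, without vehicle 1. The gamma ratio moved between 0.074, without vehicle 2, and 0.33, without vehicle combined, and the beta ratio between 0.34 and 0.57. A sum over members was given no test.

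Pan-neuronal markers were also higher in 15-HETrE libraries. Their mean log2 level was 8.05, 7.47 and 7.83 in 15-HETrE 1, unnumbered and combined and 7.39, 6.67 and 6.80 in vehicle 1, vehicle 2 and vehicle combined, without overlap. The difference between group means was 0.83. The members' 0.43 is a median of single-gene differences, at a median level of 3.69 (log2 scale). This scale can understate low genes' differences, so the sizes cannot be compared. The members' median was 0.46 with a pseudocount of 0.5, 0.32 with a pseudocount of 0.1, and 0.37 in both edgeR and DESeq2. Astrocyte and fibroblast markers differed by 0.84 and -1.73 between group means with overlapping groups, while pericyte and cell cycle markers differed by -1.05 and -1.96 without overlap. The part of these cell types in the members' values was not tested.

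**Figure D3:**
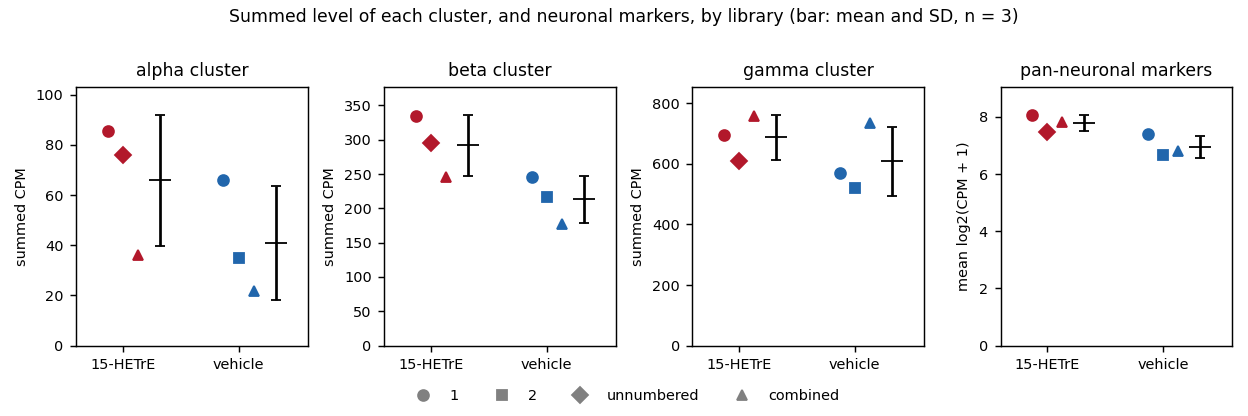
Summed CPM of the alpha, beta and gamma clusters, and the mean log2(CPM + 1) of 12 pan-neuronal markers, in each library (symbols by library name) with the group mean and SD (n = 3). The beta sums and the neuronal markers do not overlap between groups, while the alpha and gamma sums do.

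The make-up of the members' summed level overlapped between groups. Gamma members made up 65.8 ± 6.18% of the members' summed CPM in 15-HETrE and 70.3 ± 7.39% in vehicle libraries (SD, n = 3 each). Beta members made up 27.9 ± 3.74% and 24.96 ± 5.15%, and alpha members 6.30 ± 2.44% and 4.79 ± 2.58%, in the same order. Pcdhgc3 alone held 18.05 ± 7.34% in 15-HETrE and 20.7 ± 5.82% in vehicle libraries. The ratio of beta to gamma sums was 0.430 ± 0.092 in 15-HETrE and 0.363 ± 0.105 in vehicle libraries.

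**Figure D4:**
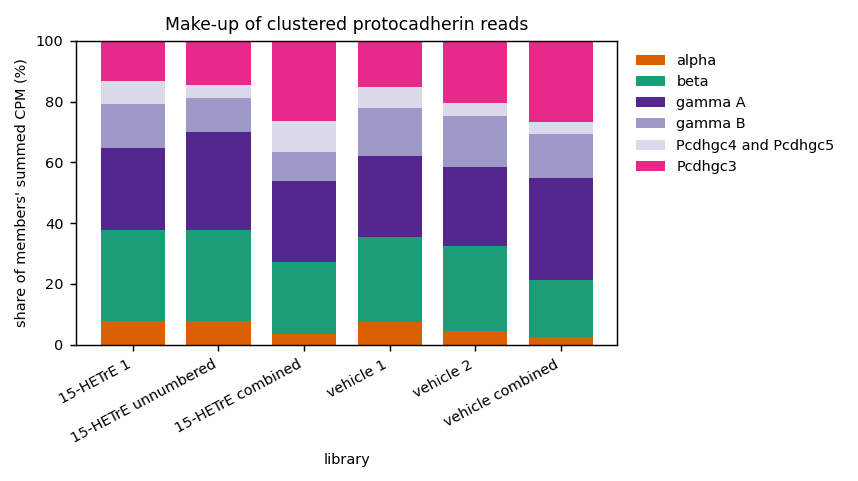
Share of the members' summed CPM (vertical axis, percent) held by alpha, beta, gamma A, gamma B, Pcdhgc4 with Pcdhgc5, and Pcdhgc3 in each library. Pcdhgc3 holds the largest shares in both libraries named combined, one of each group.

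Of the other C-type isoforms Pcdhgc5, whose protein binds GABA-A receptor subunits, had the smallest p. Its CPM was 68.2, 31.9 and 82.7 in 15-HETrE 1, unnumbered and combined, against 49.1, 24.2 and 19.8 in vehicle 1, vehicle 2 and vehicle combined. Vehicle 1 lay above 15-HETrE unnumbered, so the groups overlapped. The log2 difference was 0.96 (SE 0.45, adjusted p 0.552, limma), and without both combined libraries it was 0.43. Pcdhgc4, the isoform that mouse interneurons need to survive, had 16.6 ± 7.17 CPM in 15-HETrE and 12.7 ± 3.91 CPM in vehicle libraries (SD, n = 3 each), with a log2 difference of 0.31 (adjusted p 0.864, limma).

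Pcdhac2, the alpha C-type isoform that spaces serotonergic axons in mice, stood at 27.3, 26.0 and 6.35 CPM in 15-HETrE libraries and 22.9, 10.4 and 2.16 CPM in vehicle libraries. In both groups the combined library was lowest, the opposite of Pcdhgc3. Its log2 difference was 0.90 (SE 0.80, adjusted p 0.741, limma), and it was 0.11 without vehicle combined and 1.57 without vehicle 1. Pcdhac1 had 5.33, 7.10 and 0 CPM in 15-HETrE libraries and 3.60, 2.07 and 0.180 CPM in vehicle libraries, again lowest in those named combined. The log2 difference of 0.54 (adjusted p 0.873, limma) turned to -0.022 without 15-HETrE unnumbered and to -0.016 without vehicle combined.

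Alternate alpha isoforms were low and uneven. Pcdha12, the highest of them, had 9.42, 15.9 and 3.51 CPM in 15-HETrE libraries and 8.37, 3.28 and 0.719 CPM in vehicle libraries, with a log2 difference of 1.17 (adjusted p 0.660, limma). Pcdha9 had 9.20, 5.37 and 2.03 CPM in 15-HETrE libraries and 5.42, 3.28 and 0 CPM in vehicle libraries. Pcdha5 stood at 9.24, 2.21 and 4.87 CPM in 15-HETrE libraries and 4.02, 3.73 and 0 CPM in vehicle libraries. In both cases vehicle combined had no read, which allows up to 0.540 CPM at its depth (3 counts, counting error only), and the groups overlapped. Pcdha11 had the largest log2 difference of the members tested, 1.44 (SE 0.74, adjusted p 0.580, limma). It stood at 7.60, 6.68 and 3.11 CPM in 15-HETrE libraries and 3.97, 1.30 and 0.180 CPM in vehicle libraries, and its groups overlapped. Pcdha3 was the alpha member furthest on the lower side, at 4.46, 0 and 0.541 CPM in 15-HETrE libraries and 4.21, 1.80 and 5.93 CPM in vehicle libraries (log2 difference -1.20, SE 0.81, adjusted p 0.663, limma). Its value in 15-HETrE 1 lay above those of vehicle 1 and vehicle 2.

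Groups did not overlap for 5 members, which were 4 of 21 beta members tested (19.0%), 1 of 22 gamma members (4.55%) and 0 of 11 alpha members. Across all members tested these 5 made up 9.26%, all higher in 15-HETrE, against a background of 6.84% of genes higher and 8.32% lower. Pcdhb14 (chromosome 18, 37447657 to 37451094) had 23.5, 30.5 and 23.1 CPM in 15-HETrE libraries and 13.2, 10.8 and 6.65 CPM in vehicle libraries. Every 15-HETrE library lay above every vehicle library, and the log2 difference of 1.29 (SE 0.44, adjusted p 0.460, limma) had the smallest p of the members, 0.015 unadjusted. Over all alternatives its log2 difference lay between 1.03 and 1.48, and its adjusted p between 0.0268, with library weights, and 0.910.

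Pcdhb11 had 10.2, 7.70 and 10.5 CPM in 15-HETrE libraries and 6.03, 3.64 and 0.899 CPM in vehicle libraries, a log2 difference of 1.39 (SE 0.66, adjusted p 0.552, limma). Pcdhb21 stood at 11.4, 26.6 and 12.8 CPM in 15-HETrE libraries and 9.21, 9.85 and 1.44 CPM in vehicle libraries (log2 difference 1.38, adjusted p 0.575, limma). For both genes, vehicle combined was the lowest library, and without it the log2 difference of Pcdhb21 was 0.67. With library weights that of Pcdhb21 was 0.45. Pcdhb5 differed less, with 14.1, 8.71 and 8.65 CPM in 15-HETrE libraries and 5.94, 6.79 and 7.91 CPM in vehicle libraries (log2 difference 0.52, adjusted p 0.770, limma). What these single beta isoforms do individually is not established well enough to state here.

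The most abundant beta members showed smaller differences. Pcdhb9 averaged 27.8 ± 8.73 CPM in 15-HETrE and 22.1 ± 2.94 CPM in vehicle libraries, Pcdhb18 25.1 ± 1.89 and 21.4 ± 6.09 CPM, and Pcdhb16 22.4 ± 9.83 and 16.9 ± 2.17 CPM (SD, n = 3 each, 15-HETrE before vehicle). Their log2 differences were 0.28, 0.25 and 0.30, each with an adjusted p between 0.835 and 0.853 (limma). Pcdhb20 was the beta member furthest on the lower side, at 18.7, 8.47 and 7.43 CPM in 15-HETrE libraries and 17.6, 14.0 and 26.3 CPM in vehicle libraries, a log2 difference of -0.76 (SE 0.51, adjusted p 0.660, limma). Its groups overlapped, since 15-HETrE 1 lay above vehicle 1 and vehicle 2.

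**Figure D5:**
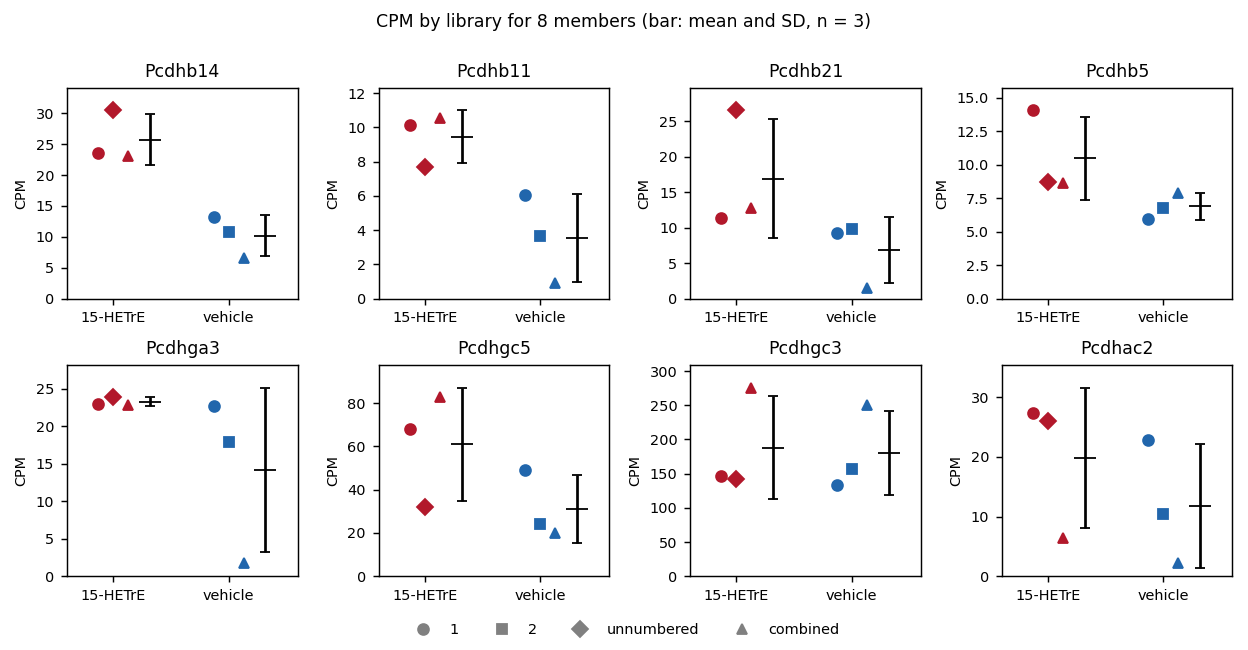
CPM in each library (symbols by library name) for 8 members, with the group mean and SD (n = 3). Pcdhb14, Pcdhb11, Pcdhb21, Pcdhb5 and Pcdhga3 do not overlap between groups, while Pcdhgc5, Pcdhgc3 and Pcdhac2 do.

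In the gamma cluster, 11 of 12 gamma A members had a log2 difference above 0 (median 0.39) and 2 of 7 gamma B members did (median -0.17). Within the first prefix both subfamilies were mostly above 0, for 11 of 12 and 7 of 7 members, and within the combined pair 5 of 12 and 2 of 7 were. Gamma A members summed to 297 ± 18.5 CPM in 15-HETrE and 249 ± 57.6 CPM in vehicle libraries, and gamma B members to 124 ± 33.3 and 136 ± 5.31 CPM (SD, n = 3 each). Both sums overlapped between groups, and the difference between the subfamilies was not tested.

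Pcdhga3 was the gamma member without overlap, with 23.0, 23.9 and 22.8 CPM in 15-HETrE libraries and 22.8, 17.9 and 1.80 CPM in vehicle libraries. Vehicle 1 reached nearly the lowest 15-HETrE library, and the log2 difference of 1.17 (SE 0.74, adjusted p 0.641, limma) was 0.19 without vehicle combined. The most abundant gamma A members differed little. Pcdhga11 averaged 42.3 ± 8.15 CPM in 15-HETrE and 42.9 ± 19.9 CPM in vehicle libraries, Pcdhga12 30.8 ± 1.46 and 33.3 ± 21.6 CPM, and Pcdhga6 30.8 ± 7.89 and 31.4 ± 12.03 CPM (SD, n = 3 each). Their log2 differences were 0.053, 0.069 and 0.0019, with adjusted p from 0.967 to 0.998 (limma), and their sign turned under several alternatives.

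On the gamma B side, Pcdhgb7 had 21.6, 10.4 and 10.5 CPM in 15-HETrE libraries and 21.6, 18.3 and 28.2 CPM in vehicle libraries, a log2 difference of -0.70 (SE 0.45, adjusted p 0.650, limma). Only 15-HETrE 1 reached the vehicle levels. Pcdhgb6 averaged 22.5 ± 9.01 CPM in 15-HETrE and 30.0 ± 4.40 CPM in vehicle libraries, Pcdhgb1 21.5 ± 5.86 and 26.6 ± 8.81 CPM, and Pcdhgb2 22.5 ± 9.59 and 21.8 ± 4.84 CPM (SD, n = 3 each). Adjusted p for these 3 genes lay between 0.733 and 0.989 (limma). Pcdhgb8, annotated as a transcribed pseudogene by RefSeq, still had 9.74 ± 6.58 CPM in 15-HETrE and 5.78 ± 3.56 CPM in vehicle libraries.

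Single isoforms were missing from single libraries. In 15-HETrE libraries 55, 53 and 53 of the 59 members had at least 1 read, and in vehicle libraries 55, 54 and 51 did. Vehicle combined, the shallowest library, had 41 members with at least 10 reads, against 51 to 54 in the others. For 6 of 54 members (11.1%, against 12.5% of all genes tested), a library had 0 reads where the mean of the other 5 libraries would give at least 10. They were Pcdha3 in 15-HETrE unnumbered (56.8 reads at that mean), Pcdha1 and Pcdhac1 in 15-HETrE combined (15.7 and 27.0) and Pcdha5, Pcdha9 and Pcdhb15 in vehicle combined (26.8, 28.1 and 41.5). Of these 6 members, 5 were alpha members, out of 11 alpha members tested, and 0 were gamma members.

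The spread between libraries of a group followed the same order. The median residual SD on the log2 scale was 1.10 for alpha, 0.64 for beta and 0.55 for gamma members, against 0.56 for all genes tested. The median level also differed, at 2.03, 3.38 and 4.47 (log2 scale) in the 3 clusters and 4.46 for all genes. Across the 54 members, levels in vehicle combined correlated with the other libraries at r = 0.579 to 0.737, and the remaining 10 pairs of libraries lay between 0.676 and 0.951. These coefficients describe members that share a library and its depth, and carry no test.

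Genes that regulate the clusters or act with their proteins were read from 4 lists. Over all genes tested, 4.27% were higher and 5.23% lower in 15-HETrE at an unadjusted p under 0.05 (limma), and 51.0% were above 0. Groups did not overlap for 6.84% of genes higher and 8.32% lower. Of 25 regulators of the promoters 24 were in the table, and none passed over all genes (limma, with 1 higher and 2 lower at an unadjusted p under 0.05). Their median log2 difference was -0.042, with 10 genes above 0 (41.7%) and 14 below. Without overlap, 1 regulator was higher and 6 were lower. CTCF, which loops promoters to enhancers, is encoded by Ctcf, with 83.2 ± 21.0 CPM in 15-HETrE and 90.3 ± 11.2 CPM in vehicle libraries (log2 difference -0.14, adjusted p 0.890, limma). Smchd1, a repressor of the clusters in mice, had 84.5, 64.3 and 71.2 CPM in 15-HETrE libraries and 121, 125 and 87.6 CPM in vehicle libraries, without overlap (log2 difference -0.58, SE 0.26, adjusted p 0.523, limma). Trim28, a co-repressor that brings histone methylation, had 65.1 ± 14.5 CPM in 15-HETrE and 125 ± 28.4 CPM in vehicle libraries, also without overlap (log2 difference -0.93, adjusted p 0.422, limma). Tet1, which oxidises methylated cytosine, had 87.7 ± 30.7 CPM in 15-HETrE and 42.4 ± 23.7 CPM in vehicle libraries (log2 difference 1.16, adjusted p 0.488, limma).

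Of 25 partners and signalling genes, 16 were above 0 (64%, against 51.0% of all genes), with a median of 0.16. None passed (limma, with 2 higher and 0 lower at an unadjusted p under 0.05, against 4.27% and 5.23% of all genes). Without overlap, 4 were higher and 1 was lower (6.84% and 8.32% of all genes). Cyfip2 and Abi2, subunits of the WAVE complex that drives actin branching and binds some protocadherin tails, had log2 differences of 0.79 and 0.62 (adjusted p 0.475 and 0.507, limma), and Robo1, an axon guidance receptor, 0.71 (adjusted p 0.543, limma). For Robo1 it was 0.058 within the first prefix, 1.41 within the combined pair and 0.29 with library weights. Of 11 protocadherins outside the clusters that were tested, 9 were above 0 (81.8%), and 2 were higher and 0 lower without overlap. None passed (limma, with 1 higher and 0 lower at an unadjusted p under 0.05). Their median was 0.45 at a median level of 6.93 (log2 scale), against 0.43 at a level of 3.69 for the clustered members. The sizes cannot be compared at such unlike levels, and with a pseudocount of 0.1 the medians were 0.48 and 0.32. Leaving out 1 library moved the first median between 0.21, without vehicle 2, and 0.82, without vehicle combined. Without both combined libraries the medians were 0.71 and 0.33, and with the batch term 0.26 and 0.43. Pcdh7 had 367, 282 and 331 CPM in 15-HETrE libraries and 201, 138 and 221 CPM in vehicle libraries, without overlap (log2 difference 0.83, SE 0.26, adjusted p 0.422, limma), and Pcdh9 and Pcdh11x, of the same delta subfamily, had log2 differences of 0.54 and 0.72 (adjusted p 0.552 and 0.554, limma). Classical cadherins and catenins were above 0 for 12 of 17 genes (70.6%), and 3 were higher and 1 lower without overlap. None passed (limma, with 1 higher and 0 lower at an unadjusted p under 0.05), and the median was 0.38. That median was 0.046 without 15-HETrE 1 and 0.058 without vehicle combined. Cdh10, Cdh4 and Ctnnd2 (which encodes a neuronal catenin) had log2 differences of 0.64, 1.09 and 1.04 (adjusted p 0.488, 0.551 and 0.528, limma).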

How the data were processed

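RNA-seq of 6 libraries was used, 3 of 15-HETrE and 3 of vehicle. The tools named in the submitters' processing notes are Trimmomatic, HISAT2, featureCounts and edgeR, with mm10 as build and no versions, settings or annotation. The deposited table holds a signal scaled as CPM by the authors; it equals CPM with edgeR's TMM factors. Divided by the value of 1 read, 100% of values in each column were whole within 1e-04 reads, which gave back the deposited read counts. The number of other columns was 0. Column names give each library's group, and a number for only 3 of them; the libraries are named by these.

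The 14523 genes averaging 1 CPM or more were fitted as log2(CPM + 1) with limma 3.58.1 in R 4.3.3, the group as the only term and a variance trend. P-values are two-sided and Benjamini-Hochberg adjusted across the genes kept, with calls at 0.05. Differences are 15-HETrE minus vehicle, which this scale can understate for low genes. All genes kept by the filter stayed in each alternative that leaves out libraries. Alternatives were other pseudocounts, filters, scalings and weights, the name prefix as a batch term, leaving out libraries, and tests of the recovered reads in edgeR 4.0.16 and DESeq2 1.42.0. CPM by library totals alone was added after the data were seen. Scripts were tested on simulated data.

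Positions matched all 59 members in RefSeq, and exon lengths 58 in GENCODE M21. Pcdha7-g was matched through a synonym, and Pcdha10 by position where GENCODE gives another symbol. Members and gene lists were chosen with earlier results of these data known. Genes were named by a rule: the C-type isoforms, the 3 highest of each subfamily, members without overlap, the 3 smallest p per direction, and, of each related list, the 3 smallest p, with Ctcf and Smchd1. Pcdhgb8, Pcdhb2, Pcdhga9, Pcdha1, Pcdha11, Pcdhb15 and the genes at the filter's edge or with the highest shares or levels per length were named after their values were seen.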

Additional observations from a re-analysis of the deposited data

How the results depend on the processing

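No paired analysis was possible because the columns carry replicate numbers for only 1 of the 15-HETrE libraries, so the groups share fewer than 2 numbers. TMM scaling gave the deposited values again. Of the values that answer a comparison, 270 stayed within the spread between libraries or within 1.5 times under an alternative and 19 moved. The 270 include the values under TMM scaling, which could not differ. With 3 libraries per group that spread is wide. The alpha median of 0.15 without vehicle combined, against 0.54 with all libraries, therefore counted as having stayed. Library weights gave the most calls, 2425 genes (7.29% of genes higher and 9.41% lower) and 4 of 54 members. Those members, all higher in 15-HETrE, were Pcdhb2, Pcdhb14, Pcdhga9 and Pcdhgc5. Vehicle combined had the lowest weight, 0.206, and vehicle 2 the highest, 3.75. With weights, 10 members were higher at an unadjusted p under 0.05 (limma, 14.5% of all genes) and the gamma median was 0.38. The prefix as a batch term called 8 genes, with 7 members higher at that p (8.59%) and a gamma median of 0.34. Leaving out both combined libraries called 75 genes, all lower, with 3 members higher at that p (5.27%), and DESeq2 165 genes, with 2 members higher (4.57%); a pseudocount of 5 gave 2 (4.4%). Leaving out each library in turn gave 0 to 45 genes called and 0 members, with 1 to 5 members higher at an unadjusted p under 0.05 (2.35% to 5.43% of all genes). The medians then ranged from 0.15 to 1.19 in alpha, from -0.044 to 0.038 over all genes and from 0.046 to 0.53 in classical cadherins and catenins. The median over the members lay between 0.17 and 0.49 under all alternatives and stayed above 0 in each cluster, the gamma median between 0.11 and 0.38.

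Members with differences near 0 changed sign. Pcdhga6 stood at -0.00062 with a pseudocount of 5, -0.012 with library totals alone, -0.072 with the batch term, -0.022 in edgeR and -0.036 in DESeq2. Pcdhga12 was at -0.055, -0.11 and -0.13 with the batch term, in edgeR and in DESeq2, and Pcdhga11 at -0.019 and -0.032 in edgeR and DESeq2. Pcdhgb2 was at 0.19 without both combined libraries, 0.051 in edgeR and 0.053 in DESeq2, Pcdhgb1 at 0.22 with weights and 0.13 without both combined libraries, and Pcdhgc3 at -0.0031 without both. With weights, Pcdhb18 was at -0.018, Pcdhb20 at 0.0021 and Pcdha3 at 0.14. Over leaving out single libraries, Pcdhga6 ranged from -0.19 to 0.29, Pcdhga12 from -0.29 to 0.55, Pcdhga11 from -0.22 to 0.40, Pcdhgb2 from -0.29 to 0.35, Pcdhgc3 from -0.27 to 0.31, Pcdhac1 from -0.022 to 1.49, Pcdhb16 from -0.0039 to 0.64 and Ctcf from -0.32 to 0.047. Other members kept their sign but moved, as Pcdha12 from 0.55 to 1.77, Pcdha9 from 0.15 to 1.49, Pcdha5 from 0.24 to 1.43, Pcdha3 from -1.91 to -0.68 and Pcdhb11 from 0.86 to 1.81. The cause was not tested. A count of 0 allows up to 0.135 CPM in the library where this limit is lowest, vehicle 2, and 0.540 CPM in vehicle combined, where it is highest.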
